A study of Mus musculus with 24 samples.

Results

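The comparison asked how the passage from stage II to stage III of eosinophil maturation in the bone marrow differed between mice given interleukin 33 (IL-33) and mice in steady state. For each gene the steady state change between these stages was subtracted from the change under IL-33, and the remainder is called the step difference here. The 12 libraries of stages II and III, taken by their titles from the 24 of the series, entered it, with 3 for each stage and condition. The cells were eosinophils from bone marrow of wild type C57BL6 mice, and each library came from cells pooled from 3 mice. The steady state groups have no treatment in the labels, and the IL-33 mice received 400 ng of the recombinant mouse cytokine in the peritoneum each day for 7 days. All 4 groups were first depleted of cells bearing Ly6G, CD90.2, NK1.1 or CD45R, and surface staining for CD117, CD55, Siglec-F, CD29, F4/80, CD200R3 and Pir-A/B defined the stages in the sorter. A stage is therefore a set of gates, and cells that moved between gates cannot be told apart from cells that changed within one. In RNA from many cells, fewer cells of a type and less RNA per cell cannot be told apart either.

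Eosinophils are granulocytes that arise from progenitors of the bone marrow. Their precursors divide and fill large granules with toxic basic proteins, and then leave the cell cycle, shut down the synthesis of those proteins, condense the nucleus and gain the receptors and enzymes of the mature cell. IL-33 is an alarm cytokine of damaged barrier tissue that acts through the receptor Il1rl1 (ST2) and drives eosinophilia, the expansion of eosinophils, in large part through interleukin 5. Genes of DNA replication and of mitosis peak at different phases of the cell cycle and are repressed together when a cell stops dividing.

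Gene counts summed to between 8462786 and 14909453 in the 12 libraries. Eosinophil genes marked every group, since Prg2, which encodes major basic protein, lay between 7417 and 17270 CPM (gene counts scaled to a common library size) in these libraries and Epx, which encodes eosinophil peroxidase, between 1477 and 17660 CPM. Reads that fell in no gene were 19.4% ± 1.4 (SD, n = 3) of all counted reads in stage II and 20.4% ± 1.91 in stage III of steady state, and 12.7% ± 1.23 and 12.2% ± 2.96 under IL-33. This share moved with the condition and hardly with the stage, and its part in the step difference was not tested. With it as a covariate 881 genes passed the step difference in place of 842, and 800 were shared. Both steady state libraries numbered 3 stood apart on immediate early and stress genes, which took 2.58% of gene counts in stage II and 2.86% in stage III there, against 0.815% to 1.59% in the other 10 libraries.

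In steady state the passage from stage II to III was broad, and under IL-33 the same passage changed few genes past the threshold. Of 12743 genes tested, 4405 (34.6%) passed the steady state step, 2188 (17.2%) rising and 2217 (17.4%) falling from stage II to III, at an adjusted p under 0.05 in edgeR's quasi-likelihood test, which gave every adjusted p below. Under IL-33, 11 genes (0.0863%) rose and 0 fell. At an unadjusted p under 0.05 there were 495 rises and 189 falls under IL-33, DESeq2 called 82 and 16, and limma-voom 1089 in all, 636 of them rises. The replicate numbers paired the IL-33 libraries, and with the number as a block 81 genes (0.636%) rose and 12 (0.0942%) fell, 93 in all (0.73%). The few calls under IL-33 thus rest on the tool, and leaving out any of the 6 IL-33 libraries left 0 to 5 of the 11 (0 without stage II library 1, 2 or 3 or stage III library 1, 5 without stage III library 2 and 1 without stage III library 3).

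The difference itself was tested for every gene. It was called for 842 genes (6.61%), 572 of them higher (4.49%) and 270 lower (2.12%), so that 67.9% of calls were higher. Scaled by library totals alone, 1007 genes were called, 88.6% of them higher, and the median of all genes moved from 0.00 to 0.31 on the log2 scale. Without the steady state libraries numbered 3 the count was 1679. This setting, here and below, left out number 3 of all the steady state stages, I and IV as well as II and III. Those of stages I and IV enter no group of the step difference but share its estimate of the spread. Leaving out a single IL-33 library lowered the 842 to 545, 514 or 485 without stage II library 1, 2 or 3, and to 476 without stage III library 2.

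The called genes were mainly ones that moved in steady state and kept nearer to their stage II level under IL-33. The 572 genes with a positive difference had a median log2 change of -2.83 in the steady step and -0.33 in that of IL-33, and the 270 with a negative one had 1.93 and 0.43. The 2 steps share no library, so their relation can be described across genes, which are not independent replicates. Over the 12743 genes Pearson's r between the steps was 0.359 and Spearman's rho 0.548. The 2217 genes that fell in steady state had a median of -2.10 there and -0.35 under IL-33, and the 2188 that rose had 1.33 and 0.34. These medians shared their direction and were smaller under IL-33. The sets were picked by the step difference or by the steady step, a choice that can raise their steady size. Over all genes, without such a choice, the middle 50% lay between -1.02 and 0.75 in steady state and between -0.30 and 0.28 under IL-33.

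**Figure D1:**
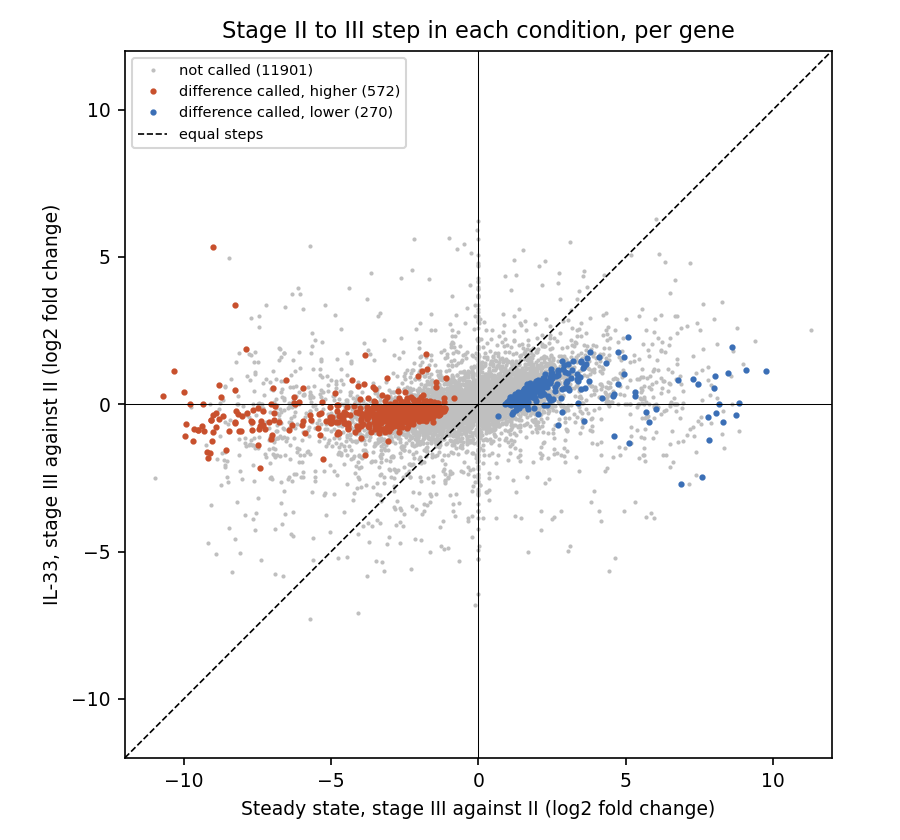
Log2 fold change from stage II to III in steady state (horizontal) against the same under IL-33 (vertical), 1 point per gene of the 12743 tested, with genes whose step difference was called in red (572 higher) and blue (270 lower). The called genes spread widely along the horizontal axis and lie close to 0 on the vertical one, away from the dashed line of equal steps.

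The clearest group was the cell cycle. Of 36 tested genes of S phase and DNA replication, 26 had a called positive step difference and 0 a negative one, and of 32 genes of G2 and mitosis 29 and 0, against 4.49% and 2.12% of all genes. All 32 mitotic genes and 33 of the 36 S phase genes fell in steady state, beside 17.4% of all genes. The median step difference was 2.40 for S phase and 2.66 for mitosis on the log2 scale, beside 0.00 over all genes. The medians of the steps were -2.81 and -2.80 in steady state and -0.42 and -0.19 under IL-33. The counts were 28 and 29 without the steady state libraries numbered 3, and lay between 23 and 27 and between 24 and 30 when 1 library was left out.

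Shown are the 150 bases before the start of 2 replication genes and 2 mitotic genes. They had the smallest p-values of each group among those with an entry in the promoter table. Both groups fell together in steady state. The motifs marked are known from promoters of the cell cycle but are not confined to them, as the shares below show. The sequences are from RefSeq on GRCm38.p6, 5′ to 3′ on the strand of the gene. Capitals mark the CCAAT box (CCAAT or its reverse ATTGG), bound by the factor NF-Y, and the CHR element (TTTGAA or its reverse TTCAAA), a site of the complexes that repress mitotic genes outside the cell cycle. The Top2a window is chr11:99024190-99024339 on the minus strand, that of Kif23 chr9:61946800-61946949 on the minus strand, that of Mcm3 chr1:20820313-20820462 on the minus strand and that of Rrm1 chr7:102441545-102441694 on the plus strand.
Top2a: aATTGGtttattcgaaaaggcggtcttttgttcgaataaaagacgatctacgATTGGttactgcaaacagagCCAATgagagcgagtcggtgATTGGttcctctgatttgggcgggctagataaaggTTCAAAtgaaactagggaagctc
Kif23: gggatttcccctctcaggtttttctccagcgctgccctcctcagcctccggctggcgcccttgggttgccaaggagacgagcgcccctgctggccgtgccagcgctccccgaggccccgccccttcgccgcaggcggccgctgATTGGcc
Mcm3: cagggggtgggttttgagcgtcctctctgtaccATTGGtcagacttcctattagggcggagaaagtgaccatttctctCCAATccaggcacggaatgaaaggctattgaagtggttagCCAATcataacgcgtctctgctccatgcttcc
Rrm1: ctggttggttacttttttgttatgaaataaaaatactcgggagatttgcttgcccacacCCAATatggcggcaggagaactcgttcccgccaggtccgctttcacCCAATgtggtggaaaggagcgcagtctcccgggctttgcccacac

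In the Top2a window 4 CCAAT boxes stand 149, 98, 78 and 58 bases before the start and 1 CHR element 23 bases before it. Kif23 has 1 CCAAT box, 7 bases before the start, Mcm3 has 3, at 117, 72 and 32 bases, and Rrm1 has 2, at 91 and 45 bases. Over 250 bases before the start, on both strands, a CCAAT box was present in 21 of the 27 mitotic promoters matched (77.8%) and in 17 of 29 S phase promoters (58.6%), beside 34.5% of all 27025 promoters in the table and 37.2% of the 10049 of genes tested here. Over the other cell cycle, growth and secretory lists the CCAAT share ran from 21.9% (ribosome biogenesis) to 85% (sterol and fatty acid synthesis). It was 82.6% for endoplasmic reticulum folding. In the sterol list 0 of 27 genes had a step difference called by edgeR, so the CCAAT box was not particular to the genes called. The CHR element was found in 9 mitotic promoters (33.3%) and 4 S phase promoters (13.8%), beside 16.3% of all and 10.8% of genes tested. The E2F site TTTNNCGC, which cannot overlap a CHR element, was found in 1 mitotic promoter (3.7%) and 8 S phase promoters (27.6%), beside 4.39% and 7.25%. The E-box CACGTG, bound by Myc and Max, was found in 2 of each (7.41% and 6.9%), beside 6.05% and 8.49%. Against genes tested the S phase share of CHR elements is thus above and both E-box shares are below, the reverse of their place against all promoters. A match is a description of the letters in these windows.

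Top2a (chromosome 11, 98992943 to 99024189, minus strand, GRCm38) encodes the topoisomerase that untangles sister chromatids. It lay at 361, 419 and 630.1 CPM in the stage II libraries of steady state and at 52.9, 58.5 and 35.1 CPM in those of stage III. Under IL-33 it lay at 702, 733 and 650 CPM in stage II and at 560, 633 and 588 CPM in stage III. All 3 stage III libraries of steady state lay below every other library of these stages, whereas those of IL-33 lay just below their own stage II range, without overlap. The step difference was 3.04 on the log2 scale (SE 0.40, adjusted p = 0.000157).

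Kif23, a kinesin of the dividing cell's midbody, had the same pattern. Its levels in steady state were 123, 173 and 254 CPM in stage II and 23.1, 20.6 and 8.59 CPM in stage III, and under IL-33 189, 209 and 190 CPM in stage II and 177, 186 and 193 CPM in stage III. The step difference was 3.32 (SE 0.47, adjusted p = 0.000252). In stage IV under IL-33 Kif23 was still at 154, 163 and 187 CPM, where Top2a was at 70.3, 41.5 and 32 CPM, and the difference of its change from II to IV was called (2.02, adjusted p = 0.0121). Among the 32 mitotic genes Kif23 alone had that call.

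Mcm3 (chromosome 1, 20802968 to 20820312, minus strand), a subunit of the replicative helicase, measured 341, 308 and 430 CPM in stage II and 52.9, 41.3 and 53.7 CPM in stage III of steady state. Under IL-33 it measured 516, 436 and 457.2 CPM in stage II and 312, 372 and 349 CPM in stage III. The IL-33 libraries of stage III lay below those of stage II without overlap, by far less than in steady state, and the step difference was 2.42 (SE 0.32, adjusted p = 0.000175). Rrm1, the large subunit of ribonucleotide reductase, which makes the precursors of DNA, fell in steady state from a range of 398 to 439.1 CPM to one of 35.9 to 76.9 CPM. It ranged from 448.7 to 537 CPM and from 345 to 462 CPM under IL-33, and its log2 changes of -2.94 and -0.34 differed (SE of the difference 0.36, adjusted p = 0.000221). Mcm7, of the same helicase, and Prim1, the primase that starts new strands, had step differences of 2.05 and 2.45 (adjusted p = 0.000271 and 0.000504).

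The 10 S phase genes without a call included Pcna, the sliding clamp (1.42, adjusted p = 0.0722), and Rfc2, of the clamp loader, which hardly moved in either condition (0.03 in steady state and 0.01 under IL-33). The 3 mitotic genes without a call were Cenpa, Cenpe and Bub1, with step differences of 1.39, 1.97 and 2.14. In stage III the S phase list took 0.541% ± 0.0325 of gene counts (SD, n = 3) under IL-33 and 0.103% ± 0.0124 in steady state, while in stage II it took 0.732% ± 0.0597 and 0.654% ± 0.0462. The mitotic list took 0.745% ± 0.0497 in stage III under IL-33 and 0.0854% ± 0.0143 in steady state.

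**Figure D2:**
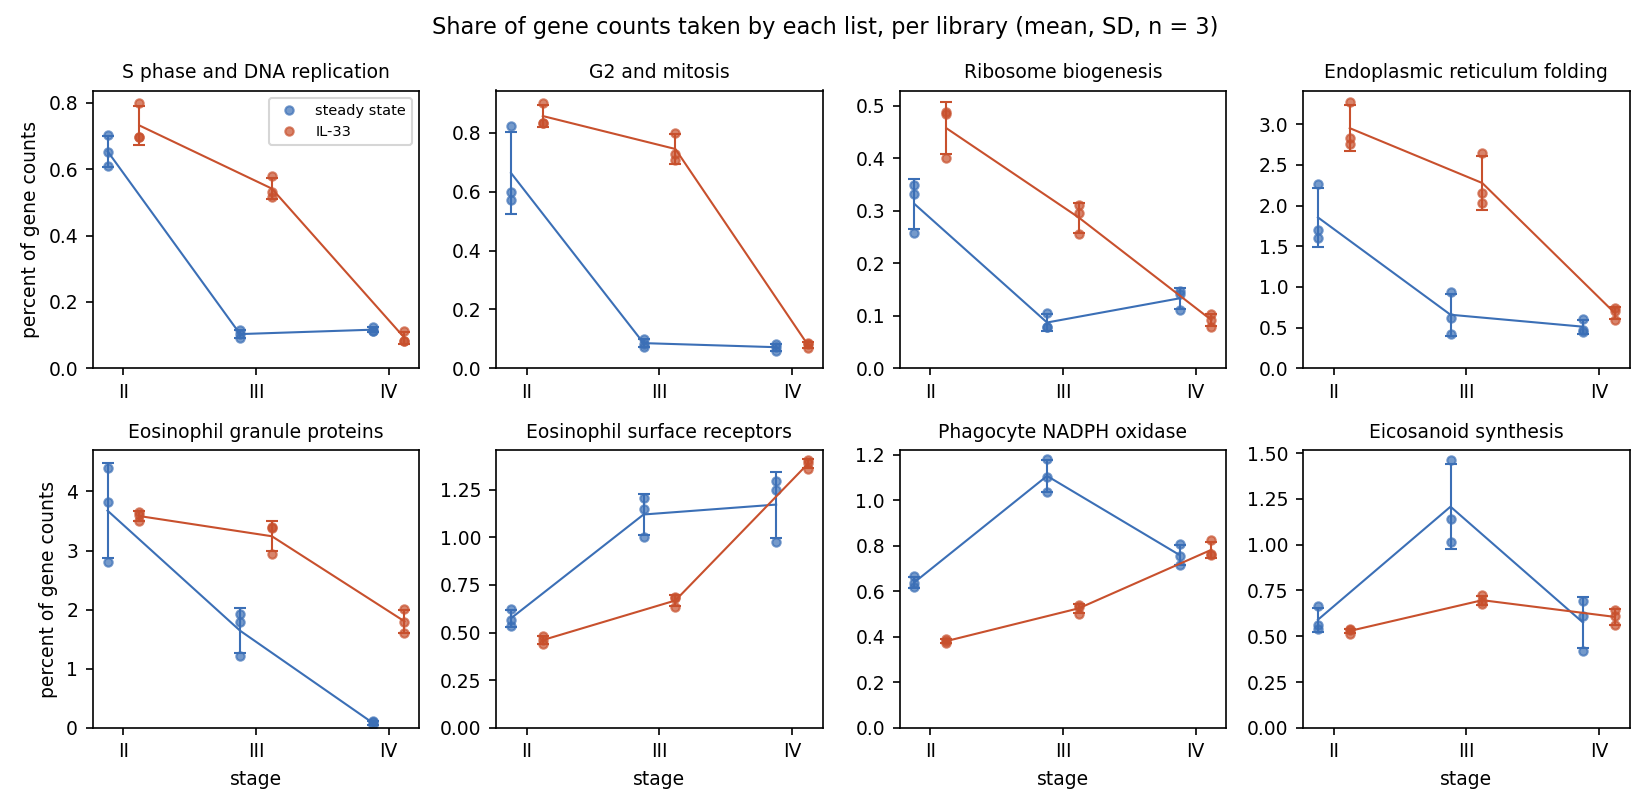
Percent of gene counts taken by 8 gene lists in stages II, III and IV, with 1 point per library, the mean as a line and the SD as a bar (n = 3), steady state in blue and IL-33 in red. The S phase and mitotic lists drop between II and III in steady state, to 0.103% and 0.0854%, and between III and IV under IL-33, to 0.0916% and 0.0791%.

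Regulators of the cell cycle were mixed. Of 27 tested G1 cyclins, their kinases and inhibitors and E2F regulators, 7 had a called positive difference (25.9%) and 1 a negative one (3.7%), beside 4.49% and 2.12% of all genes. In steady state 6 rose (22.2%) and 12 fell (44.4%), beside 17.2% and 17.4% of all genes. Foxm1 (chromosome 6, 128362967 to 128376146, plus strand), the transcription factor of mitotic genes, lay at 104, 74.6 and 45.4 CPM in stage II of steady state and at 5.71, 3.43 and 0.424 CPM in stage III. Under IL-33 it lay at 104, 98.8 and 93 CPM and then at 68.9, 97.4 and 80 CPM, and the step difference was 4.30 (SE 0.79, adjusted p = 0.00195). The IL-33 ranges of the 2 stages overlapped, those of steady state did not. E2f8, a repressor of replication genes, and Rbl1, the pocket protein p107, had differences of 2.71 and 2.84, and Cdk4, the kinase of D-type cyclins, 1.87 (adjusted p = 0.0065). The gene called lower was Cdkn1b, the inhibitor p27, which changed by 2.59 in steady state and 0.46 under IL-33 (step difference -2.13, adjusted p = 0.0144).

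Of 18 genes of DNA repair that act at the replication fork, 10 were called higher (55.6%, beside 4.49% of all genes) and 0 lower, with a median step difference of 2.36. They included Chek1, the kinase of the replication checkpoint (4.39, adjusted p = 0.00158), and Rad54l, of strand exchange (3.55, adjusted p = 0.00219). The count was 8 without the steady state libraries numbered 3, and 6 without any of IL-33 stage II library 2, stage II library 3 and stage III library 2. Among 16 genes of the nuclear lamina and chromatin architecture 7 were called higher (43.8%, beside 4.49% of all genes) and 0 lower. With library totals or without the steady state libraries numbered 3, 12 were higher. Called were the condensin genes Smc2 (2.87, SE 0.35, adjusted p = 6.72e-05), Ncapg (3.49), Ncaph (2.70) and Ncapd2 (2.56), with Ezh2, the Polycomb methyltransferase (2.19), Hmgb3 (2.13) and Dnmt1, the maintenance DNA methyltransferase (1.51). Smc2 had 186, 167 and 321 CPM in stage II and 23.8, 23.8 and 26.4 CPM in stage III of steady state, and 209, 185 and 203 CPM in stage III under IL-33. The lamin genes Lmna, Lmnb1 and Lmnb2 were not called.

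**Figure D3:**
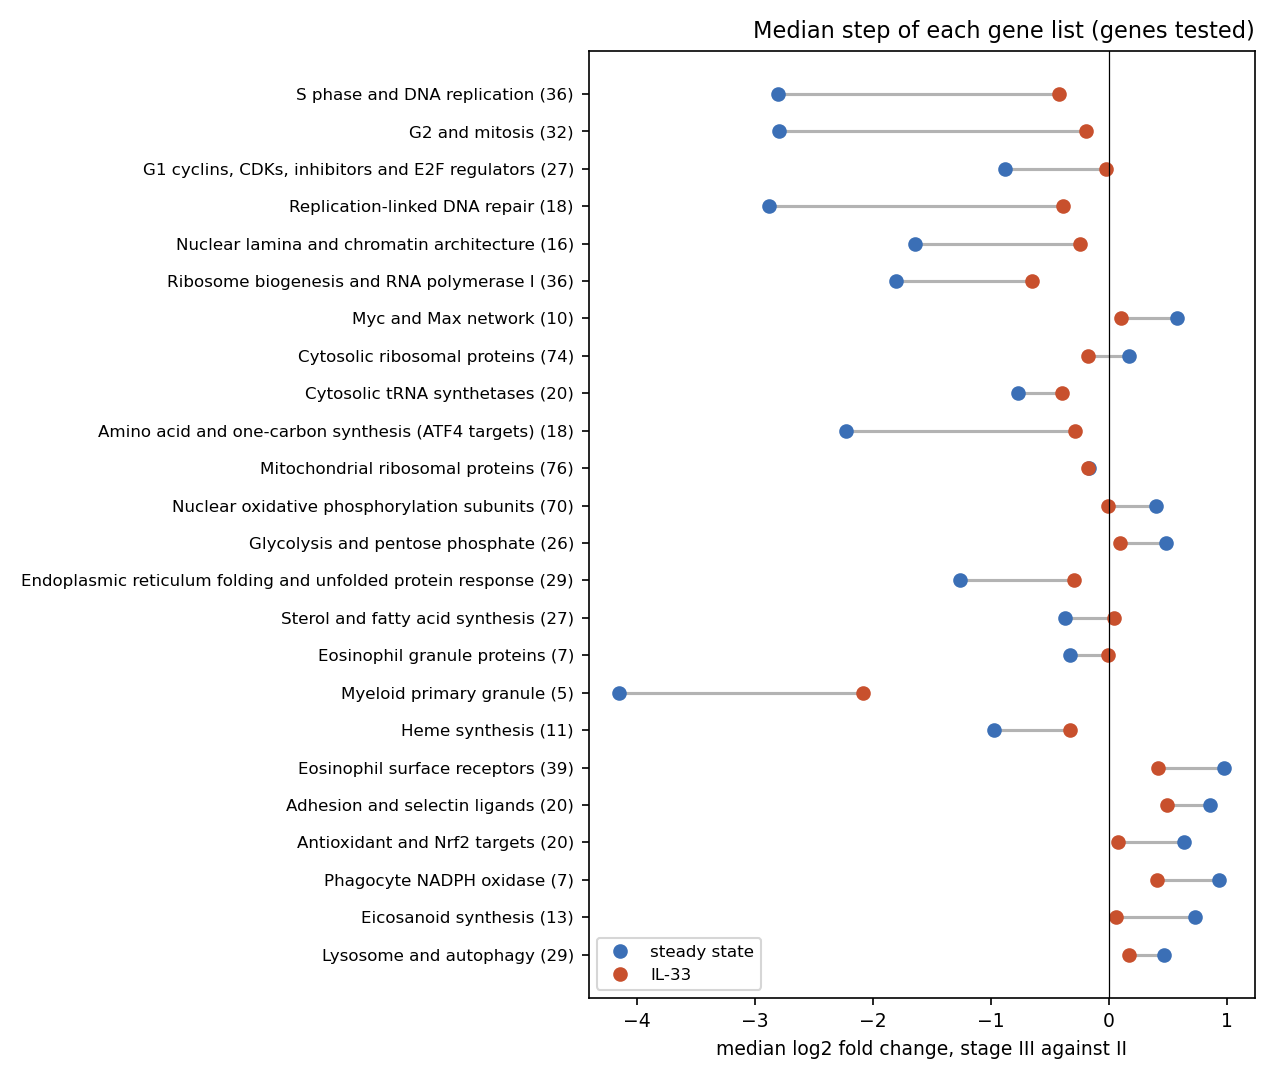
Median log2 fold change from stage II to III of 24 gene lists in steady state (blue) and under IL-33 (red), with the number of genes tested in brackets. The cell cycle lists sit between -2.88 and -0.88 in steady state and between -0.42 and -0.03 under IL-33.

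Genes of ribosome production had fewer calls. Of 36 genes of ribosome biogenesis and RNA polymerase I, 7 were called higher (19.4%, beside 4.49% of all genes) and 0 lower, with a median step difference of 1.14. The median was -1.80 in steady state, where 30 genes fell (83.3%, beside 17.4% of all genes). It was -0.65 under IL-33, where each of the 36 estimates lay below 0 and none was called. The count was 19 without the steady state libraries numbered 3, 12 with library totals as the only scaling, and 4 without any of steady state stage II library 1, IL-33 stage II library 3 and IL-33 stage III library 2. Ppan, a factor of the large ribosomal subunit (chromosome 9, 20888175 to 20892178, plus strand), went from 111, 114 and 53.6 CPM to 6.8, 5.72 and 8.27 CPM in steady state. Under IL-33 it went from 100.1, 116 and 96.4 CPM to 55.2, 69.4 and 62.7 CPM, again without overlap, and the step difference was 3.01 (SE 0.38, adjusted p = 0.000118). Utp4 and Mybbp1a, both of the nucleolus, had differences of 2.12 and 2.14. Nop56, a core protein of the small nucleolar particles, had 1.65 (adjusted p = 0.0177).

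Ribosomal protein genes themselves had almost no calls. Of 74 genes for cytosolic ribosomal proteins 0 were called in either direction by edgeR, DESeq2 or limma-voom (3 lower at an unadjusted p under 0.05), with a median step difference of -0.34 that was -0.01 with library totals and 0.04 without the steady state libraries numbered 3. Of 76 mitochondrial ones 1 was called, Mrps2, which was lost in 10 of 21 alternatives, and 4 were called with library totals or without the steady state libraries numbered 3. At an adjusted p under 0.05, 3 of 20 cytosolic tRNA synthetases were called higher (Vars, Iars and Farsa), as were 3 of 18 genes of amino acid and one-carbon synthesis (Psat1, Shmt2 and Slc7a5), with medians of 0.36 and 1.56. The shares were 15% and 16.7%, beside 4.49% of all genes. The amino acid list went both ways, with 9 genes higher and 3 lower at an unadjusted p under 0.05. Without the steady state libraries numbered 3, 5 of its genes were called higher and 3 lower. Farsa, Iars and Slc7a5 lost their calls in 10, 6 and 3 alternatives, and 1 synthetase was called without any of steady state stage II libraries 1 and 2, IL-33 stage II libraries 2 and 3 and IL-33 stage III library 2. Psat1, of serine synthesis, lay at 125, 94.8 and 43.9 CPM in stage II of steady state and at 16.4, 5.6 and 2.76 CPM in stage III, against 329, 314 and 237 CPM and 190.2, 208 and 142 CPM under IL-33 (step difference 2.71, SE 0.62, adjusted p = 0.00982). Myc, a driver of growth genes, lay at 140.4, 78.6 and 32.1 CPM and then at 8.99, 0.572 and 0 CPM in steady state. It lay at 243, 133 and 128 CPM and then at 128, 69.2 and 61.5 CPM under IL-33, and its step difference of 3.77 (adjusted p = 0.038) was no longer called in 9 of 21 alternatives, 8 of them without a single library (adjusted p up to 0.0976, without IL-33 stage II library 3). Max, the partner of Myc, went the other way, rising by 2.94 in steady state, with 0.55 under IL-33 (difference -2.39, adjusted p = 0.0194). The call was lost in 4 alternatives.

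Energy metabolism had few calls. Of 70 nuclear genes of oxidative phosphorylation 0 were called by any of the 3 tools (3 lower at an unadjusted p under 0.05), with a median of -0.40, beside 0.00 over all genes. Of 26 genes of glycolysis and the pentose phosphate path 3 were called lower (11.5%, beside 2.12% of all genes), all of them genes that rose in steady state. Taldo1, the transaldolase, rose from 988, 992 and 1014 CPM to 3025, 3406 and 3225 CPM in steady state. Under IL-33 it had 1042, 1250 and 1251 CPM in stage II and 1508, 1636 and 1564 CPM in stage III, above stage II in every library (step difference -1.28, SE 0.25, adjusted p = 0.00321). Aldoa, of glycolysis, and Hk2, a hexokinase, had differences of -1.14 and -1.34 (adjusted p = 0.0137 and 0.0181). Hk2 was not called with library totals or without IL-33 stage II library 3 or stage III library 2.

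The endoplasmic reticulum, where granule proteins are folded, was the other large biosynthetic group. Of 29 genes of folding and the unfolded protein response 7 were called higher (24.1%, beside 4.49% of all genes) and 0 lower, with a median step difference of 0.95. The steady state median was -1.26, with 20 genes falling (69%, beside 17.4% of all genes), and that under IL-33 was -0.30. The count was 19 without the steady state libraries numbered 3, 13 without steady state stage II library 3 alone and 13 with library totals. Xbp1 (chromosome 11, 5520659 to 5525893, plus strand), the transcription factor of secretory cells, fell from 482, 376 and 388 CPM to 141, 96.6 and 134 CPM in steady state. Under IL-33 it stayed at 577, 637 and 505 CPM in stage II and 573, 646 and 482 CPM in stage III, with overlapping ranges, and the step difference was 1.73 (SE 0.32, adjusted p = 0.00202). Calr, a chaperone of glycoproteins, fell from 2344, 1748 and 849 CPM to 322, 116 and 171 CPM in steady state and lay at 3308, 4162 and 3067 CPM and then 2117, 2936 and 2063 CPM under IL-33 (step difference 2.46, SE 0.51, adjusted p = 0.00481). Pdia6 and Pdia3, which form disulphide bonds, and Canx, a lectin chaperone, had differences of 1.82, 1.37 and 1.11. Hspa5, the main chaperone of the compartment, had 0.26 and was not called.

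Granule protein genes had 1 call by stage III and more by stage IV. Epx (chromosome 11, 87864000 to 87875536, minus strand) was the only called gene of 7 in the step difference (14.3%, beside 4.49% of all genes called higher). It fell from 14140, 12760 and 9693 CPM to 3145, 1477 and 3485 CPM in steady state. Under IL-33 it lay at 15880, 17660 and 15410 CPM and then at 11550, 15410 and 14370 CPM, with only the highest stage III library reaching the lowest of stage II, and the step difference was 1.93 (SE 0.37, adjusted p = 0.00238). Prg2 had 0.43 (adjusted p = 0.57) and Prg3, its homolog, 1.27 (adjusted p = 0.115). The 4 ribonuclease genes Ear1, Ear2, Ear6 and Ear10 had differences between -0.43 and 0.65, and as near-identical copies they may share reads. Counted from stage II to IV, which uses the same stage II libraries, 7 of 7 granule genes had a called positive difference, against 2.51% of all genes, with a median of 4.83. In stage IV the steady state libraries had 20.2, 18.6 and 26.5 CPM of Epx and the IL-33 libraries 5997, 6901 and 4504 CPM (7.64, adjusted p = 3.05e-11).

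Genes of the primary granule of neutrophils and early myeloid cells fell in steady state in 5 of 5 cases, beside 17.4% of all genes. Of them 2 had a called positive difference (40%, beside 4.49% of all genes), Ms4a3 (3.81, adjusted p = 0.0118) and Prtn3, proteinase 3. Under IL-33 the 5 estimates lay below 0, with a median of -2.08, and 0 were called, but 3 fell with the replicate block, Prtn3 among them (-1.75, adjusted p = 0.0389). Prtn3 started from 304, 819 and 165 CPM in stage II of steady state and from 36.5, 27 and 35.2 CPM under IL-33, and its step difference was 2.14 (adjusted p = 0.0384). The call was lost in 11 of 21 alternatives, with an adjusted p of 0.164 without steady state stage II library 2, the highest of the 3. Of 11 genes of heme synthesis, which supplies the peroxidase, 2 were called higher (18.2%, beside 4.49% of all genes), Abcb10 (1.93, adjusted p = 0.011) and Fech (0.98, adjusted p = 0.0477). The call of Fech was lost in 10 alternatives, without 9 of the 12 libraries and with no filter.

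**Figure D4:**
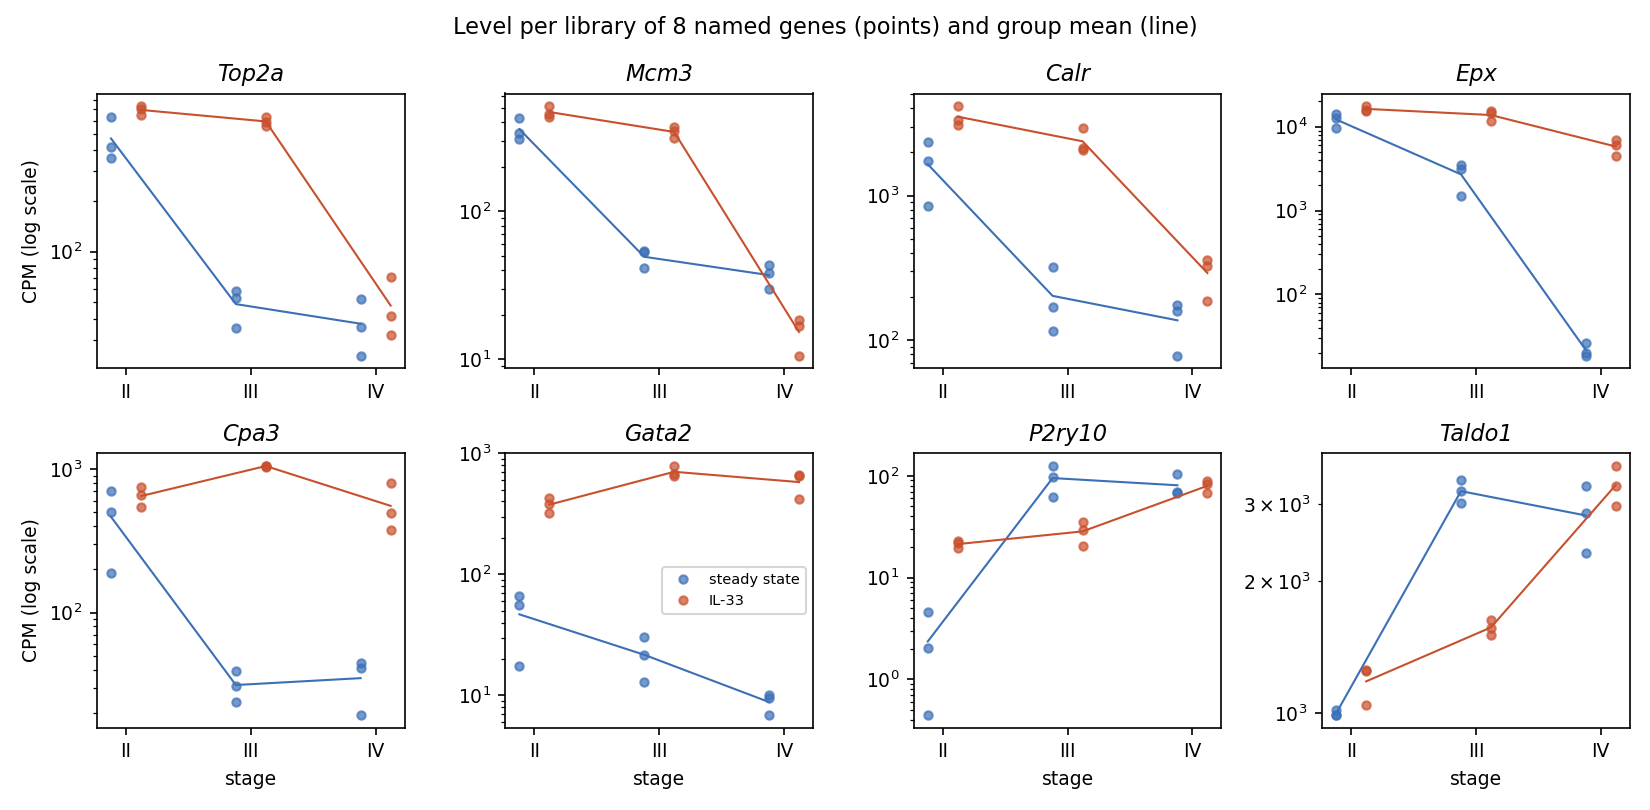
Levels of 8 named genes in stages II, III and IV in CPM on a log scale, 1 point per library and a line through the group means, steady state in blue and IL-33 in red. Top2a, Mcm3 and Calr drop 1 stage later under IL-33, Epx and Cpa3 part from steady state at stage III, and P2ry10 and Taldo1 are higher at stage III in steady state and overlap at stage IV.

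Genes of the mature eosinophil had few calls. Of 39 surface receptors tested 20 rose (51.3%) and 2 fell (5.13%) in steady state, beside 17.2% and 17.4% of all genes. A called negative step difference was found for 1 of 39 and a positive one for 0, a negative share close to the 2.12% of all genes. The medians were 0.98 for the steady step and 0.42 for that of IL-33, and that of the difference was -0.53 (-0.52 with Ptgdr2, which had no counts in steady state, at its bound). Without the steady state libraries numbered 3, 7 were called lower, and with library totals 0. The called gene was Fcgr3, a receptor for immunoglobulin G, with 786, 669 and 1149 CPM and then 2026, 2046 and 3063 CPM in steady state against 783, 918 and 813 CPM and then 1052, 1216 and 1033 CPM under IL-33. Its stage III libraries lay above those of stage II in both conditions, and the difference of -1.06 (SE 0.30, adjusted p = 0.0346) was lost in 11 alternatives, among them the leaving out of 9 of the 12 libraries.

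Receptors of interest for eosinophils are given whatever their result. Ccr3, the eotaxin receptor, rose in steady state from 7.61, 35.9 and 49.4 CPM to 562, 1025 and 394 CPM. Under IL-33 it went from 9.7, 16.2 and 19.5 CPM to 107, 79 and 93.8 CPM (IL-33 step 2.62, adjusted p = 0.0643, or 0.0265 with the replicate block), and the step difference was -1.79 (SE 0.79, adjusted p = 0.183). Il5ra, the receptor chain for interleukin 5, rose from 163, 119 and 159 CPM to 326, 316 and 353 CPM in steady state. It had 200, 124 and 200 CPM and then 146, 102 and 213 CPM under IL-33, with overlapping ranges and a step difference of -1.36 (SE 0.44, adjusted p = 0.068). Siglecf, Il1rl1 and Cd9 had differences of -0.40, -0.11 and -0.43 (adjusted p = 0.718, 0.948 and 0.483). For the sort markers, 0 of 9 genes were called by edgeR, 1 higher by DESeq2 and 1 lower by limma-voom. At an unadjusted p under 0.05 in edgeR 1 was higher and 2 were lower. Adgre1 (F4/80) rose by 2.05 in steady state and had 1.01 under IL-33 (0.0364 as adjusted p with the block), and Kit (CD117) fell by 3.00 and had -1.93.

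Effector enzymes were tested next. All 7 genes of the phagocyte NADPH oxidase, which makes superoxide, rose in steady state, beside 17.2% of all genes. Under IL-33 all 7 estimates lay between 0.27 and 0.97. The list took 0.639% ± 0.025 of gene counts in stage II and 1.11% ± 0.0714 in stage III of steady state (SD, n = 3). Under IL-33 it took 0.381% ± 0.00938 and then 0.525% ± 0.0203, so that all 3 stage III libraries lay above stage II in both conditions. The median of the step difference was -0.64, beside 0.00 over all genes.

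Among 13 genes of eicosanoid synthesis 2 were called lower (15.4%) and 1 higher (7.69%), beside 2.12% and 4.49% of all genes. The lower ones were Alox5ap, which presents arachidonic acid to 5-lipoxygenase (-1.05, adjusted p = 0.0183), and Tbxas1, thromboxane synthase (-1.27, adjusted p = 0.00349). Alox5ap was not called without steady state stage II library 2 or IL-33 stage II library 3 (adjusted p = 0.0503 and 0.0558). Alox15, the 12/15-lipoxygenase that is abundant in eosinophils, rose from 1960, 1638 and 3112 CPM to 11540, 8293 and 7100 CPM in steady state. Under IL-33 it went from 1839, 1743 and 1813 CPM to 2874, 2956 and 3171 CPM, and the difference of -1.27 (SE 0.40) had an adjusted p of 0.056. Ptgs1, cyclooxygenase 1, was the gene called higher. It fell from 157, 124 and 79.8 CPM to 18.6, 18.2 and 15.5 CPM in steady state and lay at 174, 176 and 167 CPM and then 146, 163 and 143 CPM under IL-33 (step difference 2.59, SE 0.36, adjusted p = 0.000252).

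Smaller groups held a few calls each. The shares called lower were 10% of antioxidant, 6.9% of lysosome and autophagy, 5% of adhesion and 17.6% of antigen presentation genes. The share of all genes was 2.12%. Of 20 antioxidant genes 2 were called lower, Nqo1, a quinone reductase (-2.48, adjusted p = 0.00377), and Cat, catalase (-1.21, adjusted p = 0.0318, lost in 10 alternatives). Of 29 genes of the lysosome and autophagy 2 were called lower, Ctsd and Map1lc3b, and both lower calls were lost with library totals or without steady state stage III library 2, IL-33 stage II library 2 or IL-33 stage III library 2. Of 20 adhesion genes 1 was called lower, Selplg, the selectin ligand PSGL-1 (-1.27, adjusted p = 0.015), which was not called with library totals or without steady state stage III library 2. In antigen presentation 3 of 17 were called lower, H2-K1, H2-D1 and Psmb8, of which the class I genes may share reads, and all 3 calls were lost without IL-33 stage II library 2. The lists of STAT5 targets, NF-kB targets, the Bcl2 family and interferon-stimulated genes (15, 24, 16 and 25 tested) had 0 calls by edgeR, beside 6.61% of all genes. At an unadjusted p under 0.05 they had 2, 1, 4 and 0, DESeq2 called 0, 1, 1 and 0 and limma-voom 0, 0, 2 and 0. Without the steady state libraries numbered 3, edgeR called 3 STAT5 targets lower, and 1 Bcl2 gene higher and 1 lower. With the replicate block it called 1 STAT5 target and 2 Bcl2 genes lower.

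Among 23 chemokine and cytokine genes 2 were called lower (8.7%, beside 2.12% of all genes), and both rose in steady state. Ccl6 (chromosome 11, 83587882 to 83593087, minus strand), a chemokine of myeloid cells, rose from 206, 374 and 580.3 CPM to 3646, 5267 and 4149 CPM there. Under IL-33 it rose from 713, 879 and 828 CPM to 2377, 2232 and 2080 CPM (1.47, SE 0.27, adjusted p = 0.0279), and the step difference was -2.03 (SE 0.37, adjusted p = 0.00189). Il4, which encodes interleukin 4, rose from 56.9, 29 and 49.5 CPM to 258, 242 and 230 CPM in steady state and lay at 47, 45.9 and 47.7 CPM and then 94.6, 72.5 and 70.3 CPM under IL-33 (step difference -1.67, SE 0.35, adjusted p = 0.00482). Ccl6 is among the 11 genes that rose under IL-33. The others were Asb2, Ltb, Retnlg, Slpi, Timp2, Samhd1, Ypel3, Capg, Csf1r and Lgals3, and all 11 also rose in steady state. Of these, Ltb, which encodes lymphotoxin beta, rose by 3.78 in steady state and by 1.79 under IL-33, with a called difference (-1.99, adjusted p = 0.00418), and Csf1r, the receptor of M-CSF, had a difference of -0.01. Retnlg is also on the list of neutrophil markers and Csf1r on that of monocyte and macrophage markers used below. The part of other cells in these rises was not tested.

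Of 31 transcription factors of granulocytes 3 were called higher (9.68%, beside 4.49% of all genes), Gata2 and Runx1 among them, and 0 lower. Gata2 (chromosome 6, 88193891 to 88207032, plus strand), a factor of early eosinophil, basophil and mast cell precursors, lay at 56.1, 66.7 and 17.4 CPM in stage II and at 30.5, 12.9 and 21.5 CPM in stage III of steady state. Under IL-33 it lay at 319, 430 and 382 CPM in stage II and at 675, 792 and 644 CPM in stage III. The steady state ranges overlapped although the fall there was called (-1.11, adjusted p = 0.0166), and every IL-33 library of stage III lay above every one of stage II, with an IL-33 step of 0.90 that was not called (adjusted p = 0.569). The step difference was 2.01 (SE 0.49, adjusted p = 0.0136), and the II to IV difference 3.03 (adjusted p = 0.000932). Runx1, a factor of blood stem cells and granulocytes, fell from 84.5, 57.6 and 70.9 CPM to 20.4, 14.8 and 20.4 CPM in steady state and had 106, 97.6 and 136 CPM and then 143, 113 and 151 CPM under IL-33 (step difference 2.20, SE 0.33, adjusted p = 0.000333). Gata1, the main factor of eosinophil fate, and Cebpe, the factor of granule formation, had differences of -1.19 and -0.61 (adjusted p = 0.094 and 0.417). Without the steady state libraries numbered 3, 5 factors were called lower.

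Some genes that basophils and mast cells also use differed by large folds. Of 11 tested genes of that list 4 were called higher (36.4%, beside 4.49% of all genes), 1, Il4, lower (9.09%, beside 2.12%) and 6 not. The median step difference was 1.80. Cpa3 (chromosome 3, 20215620 to 20242181, minus strand), a carboxypeptidase of mast cell granules, fell from 504, 702 and 189 CPM to 30.7, 39.4 and 23.7 CPM in steady state. Under IL-33 it had 541, 656 and 749 CPM in stage II and 1037, 1058 and 1056 CPM in stage III, each above stage II, and the step difference was 4.59 (SE 0.55, adjusted p = 5.57e-05). Ms4a2 and Fcer1a, the beta and alpha chains of the high-affinity receptor for immunoglobulin E, had differences of 4.70 and 3.02 (SE 0.68 and 0.54, adjusted p = 0.000267 and 0.00155). Ms4a2 fell from 107, 104 and 32.9 CPM to 8.14, 3.32 and 2.86 CPM in steady state, and under IL-33 it was at 152, 244 and 226 CPM and then at 293, 333 and 319 CPM. Fcer1a fell from 281, 435 and 181 CPM to 63.9, 59.7 and 92.3 CPM, and under IL-33 was at 79.2, 68.8 and 86.5 CPM and then at 199.8, 131 and 126 CPM. In stage II the order of the conditions for Fcer1a was thus the reverse of that in stage III.

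The whole basophil and mast cell list took 0.165% to 0.44% of gene counts in stage II and 0.0796% to 0.117% in stage III of steady state, and 0.249% to 0.305% and 0.358% to 0.372% under IL-33. The mast cell protease genes Mcpt4, Tpsb2 and Tpsab1 had no count in any of the 12 libraries. The basophil protease genes Mcpt8 and Prss34 had step differences of 1.80 and 1.73 and were not called (adjusted p = 0.4 and 0.57). The part of other cells in these results was not tested. Of 13 stem and progenitor genes 3 were called higher (23.1%, beside 4.49% of all genes), Angpt1, Gata2 and Hoxa9. Called lower was 1 (7.69%, beside 2.12%), Meis1, whose call was lost in 15 of 21 alternatives. Angpt1, a ligand of the receptor Tie2, lay at 47.1, 55 and 37.2 CPM and then at 0.121, 0.229 and 3.39 CPM in steady state, against 61.8, 37 and 49.5 CPM and then 33.5, 33.7 and 32.4 CPM under IL-33 (step difference 4.59, SE 0.86, adjusted p = 0.0022). Hoxa9 had no counts in stage III of steady state and 2.21 to 5.05 CPM in stage III under IL-33.

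Markers of neutrophils and monocytes were present in both conditions. Neutrophil markers took 2.98% ± 0.627 and 2.08% ± 0.189 of gene counts (SD, n = 3) in stages II and III of steady state and 0.297% ± 0.195 and 0.408% ± 0.0779 under IL-33, although cells bearing Ly6G had been depleted, and their part in the step difference was not tested. In steady state 3 of 17 such markers rose (17.6%) and 5 fell (29.4%), beside 17.2% and 17.4% of all genes. Under IL-33 1 rose and 0 fell (2 and 4 with the replicate block). In the step difference 0 were called higher and 1 lower (5.88%, beside 2.12% of all genes). It was Padi4 (-1.45, adjusted p = 0.0256, lost in 7 alternatives), a histone-modifying enzyme that rose in steady state. Of 19 monocyte and macrophage markers 2 were called higher (10.5%, beside 4.49% of all genes), Vcam1 among them. The list took 0.66% to 0.756% of gene counts in stage II and 0.356% to 0.441% in stage III of steady state, and 0.273% to 0.348% in the 6 IL-33 libraries. Vcam1, an adhesion molecule, fell from 492, 684 and 1235 CPM to 197, 59.3 and 183 CPM in steady state and lay between 1419 and 1643 CPM in all 6 IL-33 libraries (2.57, SE 0.69, adjusted p = 0.0254, lost without any of 6 libraries). Marco had no count in the 12 libraries.

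Lymphoid, erythroid, megakaryocyte and dendritic cell markers each took at most 0.0915% of gene counts in any library of the 2 stages. At 0 in all 12 libraries were the lymphoid genes Cd247, Il2rb, Ncr1 and Gata3, the globin genes Hba-a1, Hba-a2, Hbb-bs and Hbb-bt, and the platelet genes Vwf and Treml1. Of the B cell, erythroid, megakaryocyte and dendritic lists (9, 8, 6 and 8 tested) 0 genes were called by edgeR, DESeq2 or limma-voom, and 1, of the dendritic list, had an unadjusted p under 0.05. Nkg7, a protein of cytotoxic granules, was the only called one of 5 lymphoid genes (20%, beside 4.49% of all genes called higher). It fell from 836, 806 and 269.9 CPM to 44.7, 12.9 and 53.2 CPM in steady state and was at 508, 601 and 506 CPM and then at 300, 362 and 302 CPM under IL-33 (step difference 3.36, SE 0.57, adjusted p = 0.000974).

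The 12 largest positive differences among called genes with at least 1 CPM in the mean of every group were those of Spag5, a spindle protein (5.05, SE 0.96), Gas2l3 (4.74), Ms4a2, Angpt1, Cpa3, Tedc1, of centrioles (4.56), Chek1, Foxm1, Wdr62, a spindle pole protein (4.28), Net1 (4.25), Ercc6l, a helicase of mitotic chromosomes (4.18), and Pdgfrb, a receptor of platelet-derived growth factor (4.18). Spag5 had 74.9, 35.7 and 114 CPM and then 1.82, 1.03 and 2.65 CPM in steady state, and 71.6, 95.8 and 102 CPM and then 67.7, 74.1 and 79.1 CPM under IL-33. Pdgfrb lay at 25.3, 16.7 and 23.4 CPM and then at 2.06, 0.572 and 0.848 CPM in steady state, and at 73.2, 68.3 and 119 CPM and then at 59.7, 76 and 116 CPM under IL-33 (SE 0.60, adjusted p = 0.000252). Of these 12, Ercc6l lost its call without IL-33 stage II library 2 or 3.

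Some genes were near absent from a group, and only their levels are given. Crhbp, which binds corticotropin-releasing hormone, was at 0.264 to 4.63 CPM in stage II and at most 0.229 CPM in stage III of steady state, and at 356 to 399 CPM and then 201 to 304 CPM under IL-33. Its difference was called (adjusted p = 0.0346) but was lost in 12 alternatives. Slc22a3, a transporter of organic cations, had no counts in stage III of steady state and 0.0881 to 33 CPM in stage II, while under IL-33 it was at 61.9 to 88.5 CPM and then 76.5 to 110 CPM (adjusted p = 0.00506). Sapcd2 lay at 31 to 42.8 CPM and then at most 0.243 CPM in steady state, and at 74.7 to 95.4 CPM and then 68.9 to 84.9 CPM under IL-33 (adjusted p = 2.65e-05).

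Among the largest negative differences P2ry10 (chromosome X, 107088492 to 107104974, plus strand), a receptor for lysophospholipids, came first. It rose from 0.441, 2.03 and 4.58 CPM to 61.7, 97.4 and 126 CPM in steady state and lay at 19.3, 21.7 and 23 CPM and then 29.3, 20.5 and 35.5 CPM under IL-33 (step difference -4.89, SE 0.66, adjusted p = 0.000198). In stage II it was higher under IL-33 and in stage III lower, and its stage IV levels of 68.1 to 104 CPM in steady state and 67.6 to 88.5 CPM under IL-33 overlapped. Prkcq, protein kinase C theta, rose from 16.7, 10.7 and 3.7 CPM to 111, 166 and 98.5 CPM in steady state and lay at 63.5, 80.9 and 57.5 CPM and then 104, 95.3 and 97.9 CPM under IL-33 (-3.04, SE 0.49, adjusted p = 0.000634). For Prkcq the stage III ranges of the 2 conditions overlapped, and the gap lay in the higher stage II level under IL-33. For P2ry10 the conditions differed in both stages, by the larger fold in stage II.

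Ly96, the partner of Toll-like receptor 4 (-2.97), Fam102a (-2.54), Ankrd33b (-3.34), Axin2, of Wnt signalling (-2.58), and Acta2, a smooth muscle actin (-2.94), also belonged to the 12. The rest were Cpeb1, Ednra, Tmem38a, Basp1 and Itpr3, each of which lost its call in 8 to 11 of 21 alternatives, as Acta2 did in 8. Ly96 rose from 0.814 to 3.64 CPM up to 28.1 to 31.7 CPM in steady state and lay at 2.93 to 4.8 CPM and then 3.42 to 7.96 CPM under IL-33 (SE 0.67, adjusted p = 0.00922), where its stage IV range was 20.02 to 35.8 CPM. Of genes near absent from a group, Unc5c, a netrin receptor, had at most 0.102 CPM in stage II and 13 to 51.7 CPM in stage III of steady state, and 0.712 to 1.94 CPM and then 2.28 to 2.91 CPM under IL-33 (adjusted p = 0.000613). Parvb and Arl4c had adjusted p-values of 0.0251 and 0.038, and were lost in 5 and 11 alternatives.

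By stage IV much of the cell cycle gap was gone and other gaps had opened. Counted from stage II to IV, the difference between conditions was called for 479 genes (3.76%), 320 higher and 159 lower. This comparison shares the stage II libraries with the step difference, so the values of each are given side by side. The S phase list had a median of 2.40 from II to III and -0.74 from II to IV, with 1 of 36 called lower, Mcm3 (-1.66, adjusted p = 0.004), and the mitotic list 2.66 and -0.15. Ribosome biogenesis had 1.14 and -1.29, with 10 of 36 called lower and 0 higher from II to IV against 1.25% of all genes lower. The endoplasmic reticulum list had 0.95 and -0.30, and the granule proteins 0.43 and 4.83. Over the 572 genes called higher from II to III the median was -0.26 from II to IV, and over the 270 called lower -0.19, beside -0.06 over all genes.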

How the data were processed

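RNA from sorted bone marrow eosinophils was amplified (SMART-Seq v4) and made into Nextera XT libraries, which do not mark strand, per the labels' protocols. The deposited values are read counts per gene, which the authors made after alignment with STAR 2.6.1a to mm10, with DESeq2 also named, per the submitters' processing notes. Which program counted the reads, with which strand setting and annotation, is "not given in the sources used here", so overlapping genes and near-identical copies are uncertain. Reads with no feature (shares above) and ambiguous reads stayed out of library sizes and tests.

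All 24 libraries were fitted together as 8 groups with edgeR 4.0.16 (quasi-likelihood test, TMM scaling, genes kept by its expression filter, leaving 12743) and the step difference was taken as an interaction contrast, with Benjamini-Hochberg adjustment over all genes and a threshold of 0.05. Levels are CPM on TMM-scaled library sizes. Shares of gene counts use the unscaled totals. R was 4.3.3, and DESeq2 1.42.0 and limma 3.58.1 served as alternatives. Tested on simulated data over 12743 genes, the step difference recovered 3% of 2-fold, 31.3% of 4-fold and 63.6% of 8-fold changes, with 3 false calls among 68, so small changes go mostly uncalled.

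The series' text calls the triplicates biological, and the p-values measure the spread between these pools. For pairing, deviations of same-numbered libraries from their group means correlated at 0.131 to 0.243 between stages II and III under IL-33, past the bar of 0.1 for every number. In steady state they correlated at 0.106, 0.058 and 0.163, under the bar for number 2 only. In each condition 6 of 6 libraries lay closest to the one of their own number. The main test used no pairing. The members and lists were chosen with earlier results of these data known. Named were the 12 most positive and 12 most negative called genes with at least 20 CPM in 1 group and 1 CPM in each, up to 3 each way near absent from a group, up to 4 called members of each list by adjusted p, and a panel of 16. Other list members, and the 11 genes of the IL-33 step, were picked for mention after their values were seen. Gene positions are from GENCODE M21 (GRCm38). Results of some genes are not reported here.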

Additional observations from a re-analysis of the deposited data

Results flagged for a closer look

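The change from stage II to III differed between IL-33 and steady state for 842 genes in the test of the difference itself, and the change from stage II to IV differed for 479 genes. The 2 counts share the stage II libraries of both conditions. No library was left out of the main fit as an outlier. The steady state libraries numbered 3 of stages II and III stood apart on immediate early and stress genes. There, replicate pairs with number 3 had a chi-square per degree of freedom of 115.6 to 122.5, and the other pairs 46.8 and 43.8.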

How the results depend on the processing

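The count of 842 genes for the step difference became 1344 with DESeq2, which held all 842, 1391 with the replicate block (802 higher, 589 lower, 829 shared) and 1679 without the steady state libraries numbered 3 (785 shared). Leaving out 1 library gave 476 to 1196. It stayed within 1.5 times under 6 other settings, from 803 with no filter to 1181 with limma-voom. By the bar used the numbers did not pair the steady state libraries or the 2 conditions. Yet 6 of 6 steady state libraries lay closest to the one of their own number. Between conditions this held for 5 of 6 in stage II and 0 of 6 in stage III. The count of 11 for the IL-33 step became 98 with DESeq2, 1089 with limma-voom, 39 with no filter, 20 with the libraries of these stages only, 93 with the replicate block, 120 without the steady state libraries numbered 3, and 0 to 5 when 1 library was left out. The count of 479 for stage II to IV became 965 with DESeq2, 729 with limma-voom and 845 with the replicate block, and 279 to 592 when 1 library was left out, below 1.5 times without IL-33 stage II library 1, 2 or 3 (296, 279 and 306) or stage IV library 2 (291). The cause of these changes was not tested. The steady step stayed between 3354 and 4893 genes, with 1349 higher and 3057 lower on library totals. Of 101 named genes with a called step difference 0 reversed under any of 21 alternatives. With 3 libraries a group, most changes under 4-fold cannot be called.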
